A study of Mus musculus with 4 samples.

Results

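Integrins are adhesion receptors made of 1 alpha and 1 beta chain, and 10 genes for such chains were followed in activated mouse T cells: the alpha chains Itgal, Itga4, Itgae, Itgav and Itga6, and the beta chains Itgb2, Itgb1, Itgb7, Itgb3 and Itgb8. They were chosen by name and were found by matching gene identifiers to GENCODE symbols, which placed all 10 among the 50600 genes of the files. RNA was sequenced from primary mouse T cells (strain C57BL/6NJ) as 4 libraries of 1 group, numbered as biological replicates 1 to 4. The file headers call the cells Th0 and activated, at 16 h, Th0 commonly meaning CD4 helper cells stimulated with no lineage-directing cytokine. The labels tie all 4 biosamples to the same donor identifier and do not state whether separate animals were used. The spread between libraries may thus be partly technical, and p-values refer to these 4 libraries alone. Sex-linked transcripts, given below, set replicates 1 and 2 apart from replicates 3 and 4. Each SD over the 4 libraries therefore spans libraries that were not alike in these transcripts. The agent of activation, age and sex are not given in the sources used here.

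An alpha and a beta chain pair inside the cell, and a chain without a partner is generally not carried to the surface. The pair of alpha and beta chain together sets which ligand the receptor binds and to which tissue a T cell can adhere. On T cells the best known receptors are LFA-1 (Itgal with Itgb2), which holds the cell to ICAM-bearing partners in the immune synapse, VLA-4 (Itga4 with Itgb1) for VCAM-1 and fibronectin, and the gut-homing receptor of Itga4 with Itgb7. The smaller sets are the epithelial retention receptor of Itgae with Itgb7, the laminin receptor of Itga6 with Itgb1, and the Itgav receptors. Itgav with Itgb3 binds vitronectin and other RGD proteins, and Itgav with Itgb8 is known for releasing active TGF-beta from its latent form.

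The 4 libraries held 46192242 to 63313389 counted read pairs. All 7 CD4 T cell markers (Cd3e, Cd3g, Trac, Cd4, Cd5, Cd28, Cd40lg) reached 1 TPM in every library, with summed levels of 4700 to 4935 TPM. Of all genes with a count, 53.6% reached 1 TPM in every library, which is called detected here. TPM (transcripts per 1000000) is the count divided by exonic length and scaled so that each library has the same sum. Defining markers of other cells were low: all 6 neutrophil markers were at 0, 7 macrophage and monocyte markers summed to 0.122 to 0.386 TPM, 7 dendritic cell markers to 0.644 to 0.857 TPM, 6 NK cell markers to 0.447 to 1.94 TPM, and 8 stromal, endothelial and epithelial markers to 1.02 to 1.66 TPM. The 7 B cell markers summed to 9.61, 6.59, 7.08 and 2.76 TPM in replicates 1 to 4. All 7 regulatory T cell markers were detected, at a sum of 368 to 396 TPM, most of it Il2ra and Ctla4, which activated T cells also express. The other regulatory markers averaged 1.15 (Ikzf2) to 9.06 TPM (Ikzf4). Of 6 CD8 T cell markers 3 were detected, at a sum of 59.0 to 66.0 TPM, most of it Cd8b1 at 57.5 ± 3.72 TPM (SD, n = 4), while Cd8a averaged 0.777 ± 0.380 TPM. Libraries also parted by sex-linked genes, with Xist at 141 and 116 TPM in replicates 1 and 2 and at 0.269 and 0.303 TPM in replicates 3 and 4. The Y-linked gene Ddx3y was at 0.0597 and 0.104 TPM in replicates 1 and 2 and at 39.7 and 42.9 TPM in replicates 3 and 4, although all 4 share a donor identifier.

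The 10 chains spanned from 540.1 TPM to near 0. Of the 10 chains 8 had 1 TPM or more in all 4 libraries, all of which were also above 5 TPM, against 53.6% of the 20867 genes with a count. Itgal was the highest chain at 540.1 ± 27.2 TPM and ranked 245 of 21751 nuclear protein-coding genes. Itgb2 followed at 361 ± 7.49 TPM, then Itgb1 at 179 ± 6.41, Itgb7 at 77.8 ± 6.58, Itga6 at 18.8 ± 1.10, Itga4 at 16.7 ± 1.11, Itgav at 13.1 ± 1.23 and Itgb3 at 6.29 ± 0.42 TPM (SD, n = 4 for each). Itgae and Itgb8 stayed below 1 TPM in every library. Each chain's range over the libraries lay clear of that of its neighbour in this order, except for Itga6 and Itga4, whose ranges overlapped although Itga6 was higher in 4 of 4 libraries. Together the 10 genes took 0.182%, 0.183%, 0.180% and 0.190% of counted read pairs in replicates 1 to 4. In bulk RNA, fewer cells that express a chain and less RNA of it per cell cannot be told apart.

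**Figure D1:**
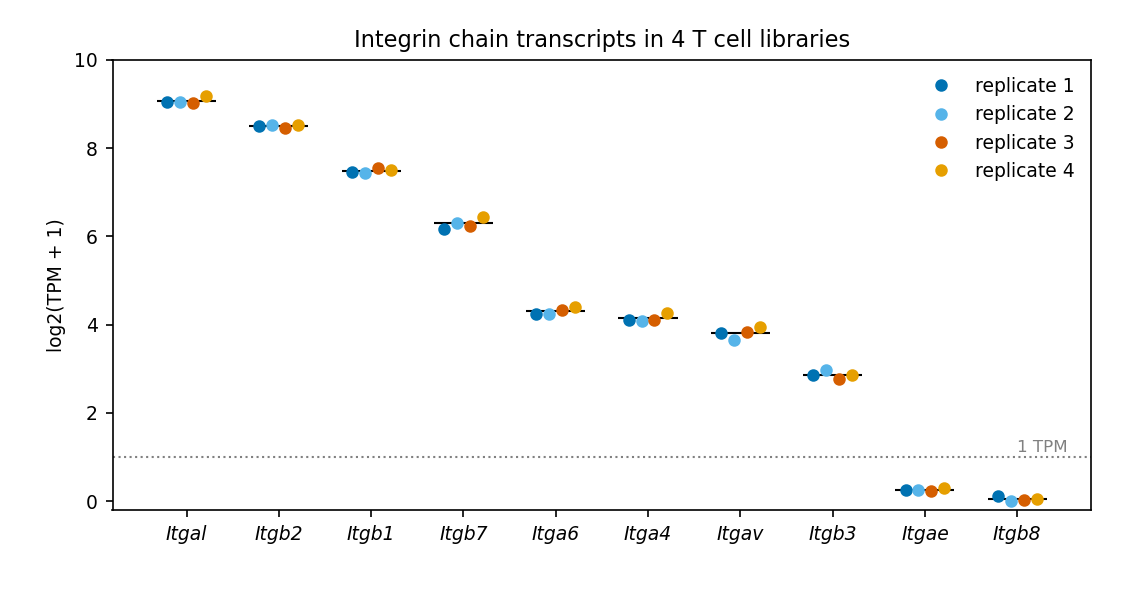
Level of each of the 10 integrin chains as log2(TPM + 1) on the vertical axis, with 1 point per library, a bar at the mean of the 4 libraries and a dotted line at 1 TPM. Itgal and Itgb2 stand highest, Itgb1 and Itgb7 next, Itga6, Itga4, Itgav and Itgb3 lower, and Itgae and Itgb8 lie under the line in all 4 libraries.

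Itgal and Itgb2, the chains of LFA-1, were the most abundant pair. Itgal (ENSMUSG00000030830.18; mm10 chromosome 7, 127296260 to 127335138, plus strand) had 529, 528, 522 and 581 TPM in replicates 1 to 4, from 51216 to 64696 read pairs. Itgb2 (chromosome 10, 77530252 to 77565708, plus strand) had 361, 367, 351 and 366 TPM. The alpha chain was thus above its beta chain in every library, and the 2 ranges did not overlap. The difference was 0.58 ± 0.06 on the log2(TPM + 1) scale (SD, n = 4), a ratio of means of 1.495, with an exact two-sided sign-flip permutation p of 0.125. That is the smallest p that 4 libraries allow, before and after Benjamini-Hochberg adjustment over the 19 differences examined, so none of the 19 could pass 0.05. The test gives this p whenever all 4 libraries share a sign, whatever the size or spread of the difference. This direction depended on the measure of gene length. With the longest annotated coding transcript of each gene in place of its exonic length, Itgal minus Itgb2 was 0.87. With the median coding transcript it was -1.16. That median was 630 bases for Itgb2, against 2970 bases for its longest coding transcript and 3052 exonic bases.

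Itgal also stood nearly alone among the alpha chains that join Itgb2. The other such chains are Itgam, Itgax and Itgad, of the myeloid receptors. Itgal made up 99.99% ± 0.01 of the summed alpha partners of Itgb2 (SD, n = 4). Itgam was counted in replicate 3 alone, at 0.127 TPM, and Itgad in replicate 4 alone, at 0.0330 TPM. Itgax was at 0.0422 TPM in replicate 2 and 0.0310 TPM in replicate 4, and at 0 in replicates 1 and 3.

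Itga4, which pairs with Itgb1 and with Itgb7, was lower than both partners. Itga4 (chromosome 2, 79255426 to 79333123, plus strand) had 16.3, 16, 16.2 and 18.4 TPM. Itgb1 (chromosome 8, 128685654 to 128733200, plus strand), the shared beta chain of many receptors for matrix proteins, had 175, 172, 186 and 182 TPM. Itgb7 (chromosome 15, 102215995 to 102231935, minus strand), the beta chain of the gut-homing receptors, had 71.1, 78.5, 74.9 and 86.5 TPM. Neither beta chain overlapped with Itga4 in any library. Itga4 minus Itgb1 was -3.35 ± 0.08 and Itga4 minus Itgb7 was -2.15 ± 0.07 on the log2(TPM + 1) scale, lower in 4 of 4 libraries in both (exact sign-flip permutation p = 0.125 each). Of the exonic bases of Itga4, 8.04% overlap the opposite-strand gene Cerkl, and the counts were made by strand.

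To set these 3 genes of shared receptors side by side in sequence as well, the windows around their start sites are shown, 250 bases before to 50 bases after the start of transcription (RefSeq, GRCm38.p6). The table of windows held 5 of the 10 chains (Itga4, Itgav, Itgb1, Itgb8 and Itgb7) and not Itgal, Itgb2, Itgae, Itgb3 or Itga6. The windows lie at chr2:79255176-79255475 (plus strand, Itga4), chr8:128685404-128685703 (plus strand, Itgb1) and chr15:102231886-102232185 (minus strand, Itgb7), and for all 3 the RefSeq start equals the start of the gene in the deposited files. Capitals mark matches on either strand to GGGCGG, the GC box bound by SP factors, and to TGTGGT, the core bound by RUNX factors.
Itga4: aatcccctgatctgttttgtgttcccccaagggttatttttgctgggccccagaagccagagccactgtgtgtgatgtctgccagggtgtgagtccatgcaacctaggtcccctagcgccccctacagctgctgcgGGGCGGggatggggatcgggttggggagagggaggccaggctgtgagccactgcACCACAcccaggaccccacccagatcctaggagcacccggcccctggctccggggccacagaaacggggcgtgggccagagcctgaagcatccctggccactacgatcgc
Itgb1: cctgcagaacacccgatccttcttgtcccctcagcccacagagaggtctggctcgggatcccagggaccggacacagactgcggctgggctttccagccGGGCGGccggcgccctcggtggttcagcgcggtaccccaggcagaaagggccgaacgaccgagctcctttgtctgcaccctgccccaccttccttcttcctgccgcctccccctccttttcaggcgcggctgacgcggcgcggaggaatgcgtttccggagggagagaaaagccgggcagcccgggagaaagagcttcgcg
Itgb7: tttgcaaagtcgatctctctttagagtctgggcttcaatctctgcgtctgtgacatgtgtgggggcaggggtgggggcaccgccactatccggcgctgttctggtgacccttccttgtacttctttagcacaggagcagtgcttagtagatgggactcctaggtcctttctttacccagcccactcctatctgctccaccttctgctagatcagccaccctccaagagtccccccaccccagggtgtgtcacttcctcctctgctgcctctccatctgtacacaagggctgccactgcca
The window of Itga4 held 1 match to each motif, the GC box starting 114 bases and the RUNX core (on the reverse strand) 60 bases before the start. The window of Itgb1 held 1 GC box, 151 bases before the start, and no RUNX core, and that of Itgb7 held neither. Over all 32851 windows of the table, 35.7% held the GC box and 16.8% the RUNX core on either strand. The windows also differed in CG pairs, with 27 in Itgb1, 10 in Itga4 and 5 in Itgb7, against a median of 7 over all windows. Their GC content was 67.3% for Itgb1, 64.3% for Itga4 and 56.3% for Itgb7, against a median of 52.7%. These matches describe letters in a window and were set against no measurement of binding.

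Between the 2 beta chains that Itga4 can join, Itgb1 was the higher. Itgb1 minus Itgb7 was 1.19 ± 0.12 on the log2(TPM + 1) scale (ratio of means 2.30), higher in 4 of 4 libraries (exact sign-flip permutation p = 0.125). Itgb7 varied more than Itgb1 over the libraries, with a coefficient of variation of 8.46% against 3.58%, a difference that was not tested. The median coding transcript of Itgb7 is 430.5 bases long, against 2683 bases for its longest and 2743 exonic bases. With median coding transcripts Itgb1 minus Itgb7 was -0.61, Itga4 minus Itgb7 -4.25 and Itgae minus Itgb7 -7.66. With the longest coding transcripts they were 1.26, -1.67 and -5.635.

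Itgae, the alpha chain known as CD103 on tissue-resident and some regulatory T cells, was near the limit of detection. Itgae (chromosome 11, 73090583 to 73147446, plus strand) was at 0.190, 0.192, 0.174 and 0.228 TPM, from 14, 13, 15 and 14 read pairs. The lowest and highest bounds of its exact 95% Poisson intervals were 0.0972 and 0.382 TPM, and each library's value lay within the interval of every other. Itga4 made up 98.85% ± 0.07 of the summed alpha partners of Itgb7 and Itgae the remaining 1.16% ± 0.07 (SD, n = 4). Itgae minus Itgb7 was -6.04 ± 0.10 and Itga4 minus Itgae was 3.89 ± 0.06 on the log2(TPM + 1) scale, each with the same sign in 4 of 4 libraries (exact sign-flip permutation p = 0.125 each). Beside Itgae, the regulatory T cell factor Foxp3 was at 2.93 ± 0.76 TPM (SD, n = 4), and its part in the level of Itgae was not tested.

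**Figure D2:**
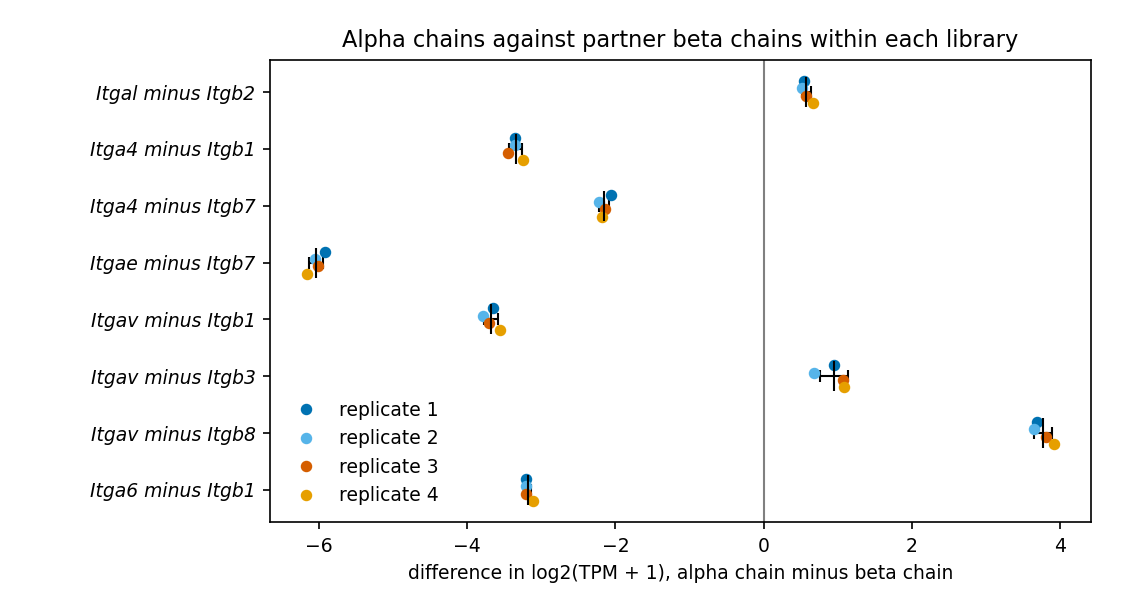
Difference of each alpha chain from a partner beta chain, as log2(TPM + 1) of the alpha chain minus that of the beta chain, with 1 point per library and a tick and bar for the mean ± SD of the 4 libraries. Itgal over Itgb2 and Itgav over Itgb3 and Itgb8 lie right of 0 in every library, and the other 5 pairs lie left of it.

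Itga6 and Itgav, the other alpha chains of Itgb1 in the set, were of the same order as Itga4. Itga6 (chromosome 2, 71745616 to 71858416, plus strand), a laminin receptor chain, had 18.0, 17.8, 19.3 and 20.2 TPM. Itgav (chromosome 2, 83724397 to 83806916, plus strand), which joins more beta chains than the other alpha chains here, had 13.03, 11.5, 13.3 and 14.5 TPM. Both lay under Itgb1 in every library: Itga6 minus Itgb1 was -3.18 ± 0.05 and Itgav minus Itgb1 was -3.68 ± 0.10 on the log2(TPM + 1) scale (exact sign-flip permutation p = 0.125 each). Among these alpha chains, Itga4 minus Itga6 was -0.16 ± 0.05, Itga4 minus Itgav 0.33 ± 0.08 and Itgav minus Itga6 -0.49 ± 0.07, each with the same sign in 4 of 4 libraries (p = 0.125 each, same permutation test). These values were sensitive to length. With median coding transcripts Itga4 minus Itgav was -2.98, Itgav minus Itga6 was 2.26 and Itgav minus Itgb1 was -0.66. That median was 688 bases for Itgav, against 7054 bases for its longest coding transcript. With the longest coding transcripts the same differences were 0.25, -0.94 and -3.18, and Itga4 minus Itga6 was -0.69. Of the exonic bases of Itgav, 5.90% overlap the opposite-strand gene Gm13684.

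Of the 10 chains, Itgb1, Itga6 and Itgav had both of their highest values in replicates 3 and 4, the libraries with little Xist. Itgb1 was at 186 and 182 TPM there and at 175 and 172 TPM in replicates 1 and 2. Itga6 was at 19.3 and 20.2 TPM in replicates 3 and 4 and at 18.0 and 17.8 TPM in replicates 1 and 2. Itgav was at 13.3 and 14.5 TPM in replicates 3 and 4 and at 13.03 and 11.5 TPM in replicates 1 and 2. These chains were picked after their values were seen, and the share of all genes with the same order was not computed. Replicate 4 also had a trend on exonic length, described below, for which these values were not corrected. The labels give no sex, and whether these levels go with it was not tested.

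By exonic length, Itga6, Itga4, Itga5 and Itgav made up like shares of the alpha chains that can join Itgb1. Adding the 12 alpha chains known to join Itgb1 gave a mean of 71.2 TPM, against 179 TPM for Itgb1 itself. Itga6 made up 26.4% ± 0.87 of that sum, Itga4 23.5% ± 0.61, Itga5 20.8% ± 1.51, Itgav 18.4% ± 0.87, Itga3 5.36% ± 0.26 and Itga10 4.96% ± 0.44 (SD, n = 4). Itga5, the alpha chain of the main fibronectin receptor, was at 15.9, 14.8, 13.9 and 14.7 TPM. The summed partners minus Itgb1 came to -1.32 ± 0.06 on the log2(TPM + 1) scale, those of Itgb7 (Itga4 and Itgae, 16.9 TPM against 77.8 TPM) to -2.13 ± 0.07, and those of Itgb2 to 0.58 ± 0.06. Each had the same sign in 4 of 4 libraries (exact sign-flip permutation p = 0.125 each). Itga4 counts in full toward Itgb1 and toward Itgb7, so the sums of those beta chains overlap. Itgav counts in full toward Itgb1, although it also joins beta chains for which no sum was made. The sums moved with the length used: with median coding transcripts the summed partners minus Itgb2 were -1.16, those minus Itgb1 -0.14 and those minus Itgb7 -4.23, and with the longest coding transcripts those minus Itgb1 were -0.83. The shares moved too, since with median coding transcripts Itgav was at 92.0 TPM, Itga6 at 18.4 TPM and Itga4 at 10.8 TPM. With the longest coding transcripts Itga6 was at 28.35 TPM, Itga4 at 17.21 TPM and Itgav at 14.35 TPM.

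**Figure D3:**
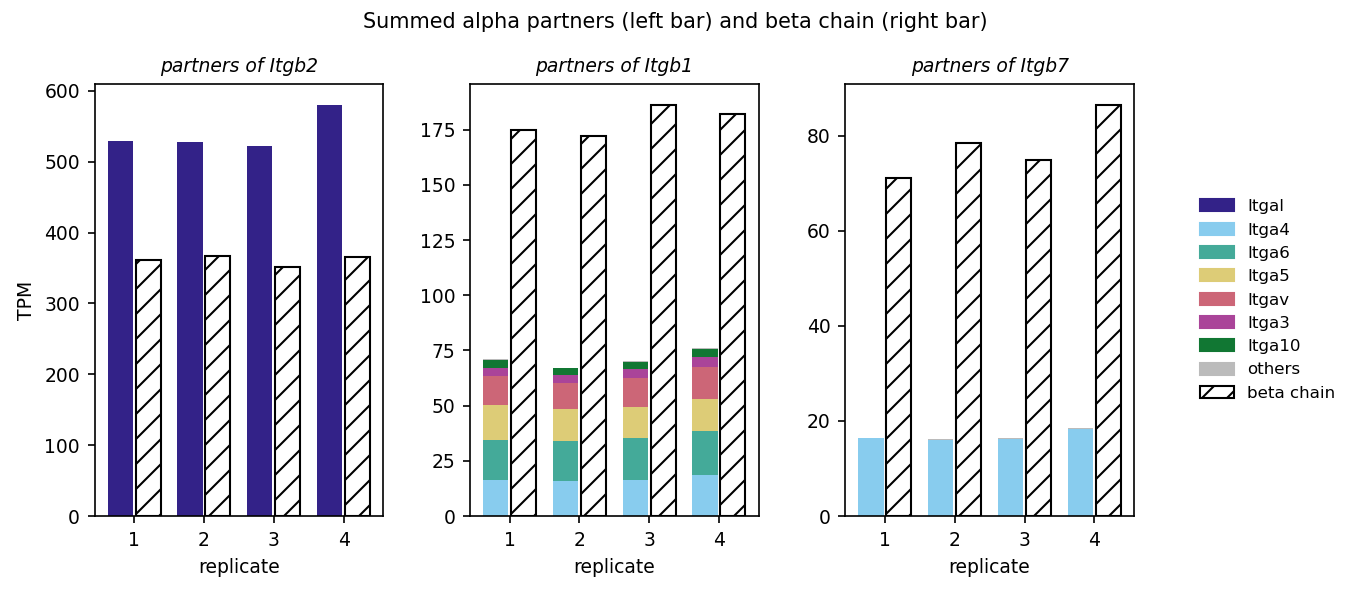
Summed TPM of the alpha chains that can join a beta chain (stacked colours, left bar of each pair) and TPM of that beta chain (hatched, right bar), by replicate, for Itgb2, Itgb1 and Itgb7. The alpha sum is the higher bar for Itgb2 in all 4 libraries and the lower bar for Itgb1 and Itgb7, and Itga6, Itga4, Itga5 and Itgav make up most of the partners of Itgb1.

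Itgb3 and Itgb8, the other beta chains of Itgav in the set, were the lower of its partners. Itgb3 (chromosome 11, 104608000 to 104670476, plus strand), known as the beta chain of the vitronectin receptor and of the platelet fibrinogen receptor, had 6.27, 6.81, 5.78 and 6.29 TPM from 498 to 643 read pairs. Itgav was above it in every library, with a difference of 0.95 ± 0.19 on the log2(TPM + 1) scale and a ratio of means of 2.08 (exact sign-flip permutation p = 0.125). With median coding transcripts that difference was 4.58. Itga2b, the platelet partner of Itgb3, was at 1.25, 0.843, 1.497 and 1.35 TPM, while the platelet and megakaryocyte markers Pf4, Ppbp, Gp9, Gp1bb and Treml1 were at 0 in all 4 libraries.

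Itgb8 was close to 0. Itgb8 (chromosome 12, 119158022 to 119238802, minus strand) had 15, 0, 5 and 4 read pairs, or 0.0842, 0, 0.0240 and 0.0269 TPM. The count of 0 in replicate 2 had an exact 95% Poisson interval of 0 to 0.02255 TPM, and 3 counts there equal 0.0183 TPM. The value in replicate 1, the highest, had an exact 95% Poisson interval of 0.0471 to 0.139 TPM. Itgb8 entered the spread test described below only under looser filters and was not called there (edgeR, unadjusted p 0.18 and adjusted p 0.958 with any gene with a count kept). Itgav minus Itgb8 was 3.77 ± 0.12, Itgb1 minus Itgb8 7.44 ± 0.07, Itgb3 minus Itgb8 2.82 ± 0.11 and Itgb1 minus Itgb3 4.63 ± 0.13 on the log2(TPM + 1) scale, each with the same sign in 4 of 4 libraries (exact sign-flip permutation p = 0.125 each). Because Itgb8 lies far below the pseudocount of 1, the differences against it depend on that pseudocount and are no fold changes: with 0.1, Itgb1 minus Itgb8 was 10.42, Itgav minus Itgb8 6.66 and Itgb3 minus Itgb8 5.61. Itgae minus Itgb7 likewise was -8.04 with 0.1, and Itga4 minus Itgae 5.83.

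Among the genes that bear on the TGF-beta that Itgav receptors release, 4 of 8 were detected in every library, beside 53.6% of all genes with a count. Tgfb1, the ligand itself, was at 105.0 ± 6.34 TPM, Furin, the protease that cuts its precursor, at 91.1 ± 5.67 TPM, and Nrros, which holds latent TGF-beta on the cell surface, at 65.8 ± 1.06 TPM. Lrrc32 (GARP), which does the same on regulatory T cells, was at 4.10, 3.58, 1.74 and 3.19 TPM (3.15 ± 1.01, SD, n = 4). None of the 4 tested genes of this list passed the spread test described below.

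**Figure D4:**
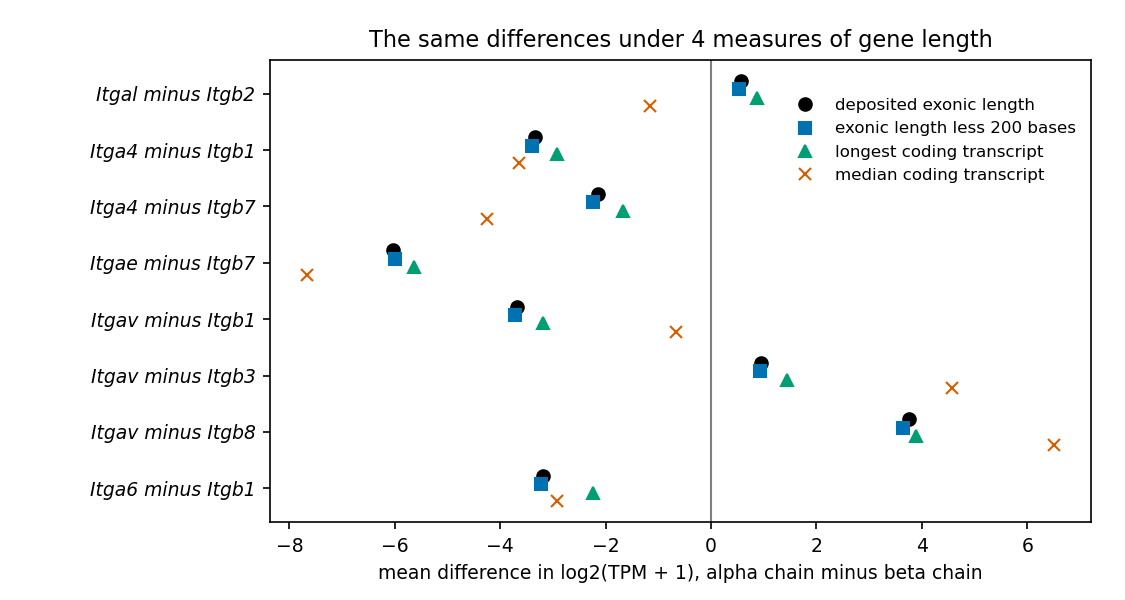
Mean difference in log2(TPM + 1) of 8 alpha and beta pairs, alpha chain minus beta chain, computed with 4 measures of gene length. The deposited exonic length, that length less 200 bases and the longest coding transcript give the same sign for all 8 pairs, and the median coding transcript turns Itgal minus Itgb2 to -1.16.

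Beside 53.6% of all genes with a count, 3 of the 17 other integrin chains of the mouse were detected at 1 TPM in every library. They were Itga5, Itga3 at 3.82 ± 0.27 TPM and Itga10 at 3.53 ± 0.40 TPM (SD, n = 4), and Itga2b was under 1 TPM in replicate 2 only. Itga1, Itga8, Itga11, Itgb2l and Itgb6 had no read pair in any library. Itga1, a collagen receptor chain of tissue-resident T cells, was thus at 0 in all 4 libraries. The epithelial chain Itgb4 reached at most 0.144 TPM and Itgb5 at most 0.201 TPM.

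Of 17 genes that switch integrins to their ligand-binding form 14 were detected in every library, beside 53.6% of all genes with a count, led by the GTPase Rap1b at 618 ± 16.3 TPM, the kindlin Fermt3 at 356 ± 12.9 TPM, which binds beta chain tails in blood cells, talin (Tln1) at 213 ± 26.2 TPM and the RAP1 exchange factor Rapgef1 at 211 ± 10.4 TPM. The kindlins differed within the family, Fermt1 having no read pair in any library. Tln1 stood at 188, 208, 205 and 249.9 TPM, highest in replicate 4. Of 8 genes that restrain integrins or RAP1 7 were detected, led by the RAP1 GTPase-activating protein Sipa1 at 179.6 ± 8.22 TPM, Cytip at 144.5 ± 3.06 TPM, filamin (Flna) at 140.0 ± 14.8 TPM and Sharpin at 48.1 ± 3.28 TPM. Flna was at 132, 133, 133 and 162 TPM, again highest in replicate 4.

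Of 15 adhesion linkage and signalling genes 11 were detected in every library, beside 53.6% of all genes with a count. The actinins Actn4 at 311 ± 10.3 TPM and Actn1 at 259 ± 14.04 TPM were highest. The blood cell parvin Parvg at 241 ± 7.58 TPM and the kinase Ptk2b at 126 ± 5.67 TPM followed. The parvin Parva had no read pair in any library. Of 15 integrin ligands 5 were detected, beside the same 53.6% of all genes with a count. The 4 highest were ICAM genes, whose proteins bind LFA-1. Icam2 was at 71.5 ± 2.78 TPM, Icam1 at 20.3 ± 1.35 TPM, Icam5 at 8.25 ± 1.42 TPM and Icam4 at 2.30 ± 0.45 TPM (SD, n = 4). Spp1 and Lamb1 were at 0 in all libraries, and Madcam1, the gut vessel ligand of Itga4 with Itgb7, averaged 0.344 ± 0.033 TPM.

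With a single group, the test across all genes asked whether a gene varied more over the libraries than others of its abundance. In edgeR's quasi-likelihood fit with Benjamini-Hochberg adjustment at 0.05, 28 of 12285 tested genes passed, or 0.228%. Of the 10 chains 9 entered the fit, all but Itgb8, and 0 passed. Their adjusted p-values lay between 0.996 and 0.998, and 0 of the 9 had an unadjusted p under 0.05. DESeq2's dispersion outliers held 0 of the 9 chains and 68 of 12285 genes, or 0.554%. The SD of log2 CPM (counts per 1000000) ran from 0.037 for Itgb2 to 0.129 for Itgae. Its median over the 9 chains was 0.071, beside 0.102 over all tested genes, which were not matched to the chains in abundance. No gene of the 6 other lists was past the threshold. In simulated counts for these 4 libraries (12149 genes), spread was added only to genes with a mean count of 100 or more. The test recovered 53 of 100 such genes given an added SD of 0.5 log2 and 87 of 100 given 1 log2. It also called 12 of 11949 genes given no added spread. Smaller spreads may thus go undetected at this number of libraries, and recovery at lower counts, as for Itgae, was not simulated.

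Replicate 4 had the highest value of Itgal, Itgb7, Itga6, Itga4, Itgav and Itgae, the last from 13 to 15 read pairs in each library. These chains were named after their values were seen. The share of all genes that were highest in replicate 4 was not computed. In that library, genes over 8 kb of exonic length had a median deviation of 0.0666 log2 CPM from their mean over the 4 libraries, and those under 2 kb one of -0.0518. Replicate 2 had a trend the other way, with -0.0395 over 8 kb and 0.0496 under 2 kb. Replicate 4 minus the mean of replicates 1 to 3 was 0.14 log2 CPM for Itga4, 0.16 for Itgav, 0.10 for Itgal, 0.09 for Itga6, 0.17 for Itgb7 and 0.23 for Itgae. A trend on exonic length was then removed from each library. The difference became 0.02 for Itga4, 0.07 for Itgav, 0.06 for Itgal, 0.03 for Itga6, 0.20 for Itgb7 and 0.22 for Itgae. For Itgb3 it went from -0.04 to -0.07, for Itgb2 from -0.02 to 0.01 and for Itgb1 from -0.0101 to -0.0075. The same library had the lowest sum of B cell markers, 2.76 TPM against 6.59 to 9.61 TPM in replicates 1 to 3, and their part in these levels was not tested.

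**Figure D5:**
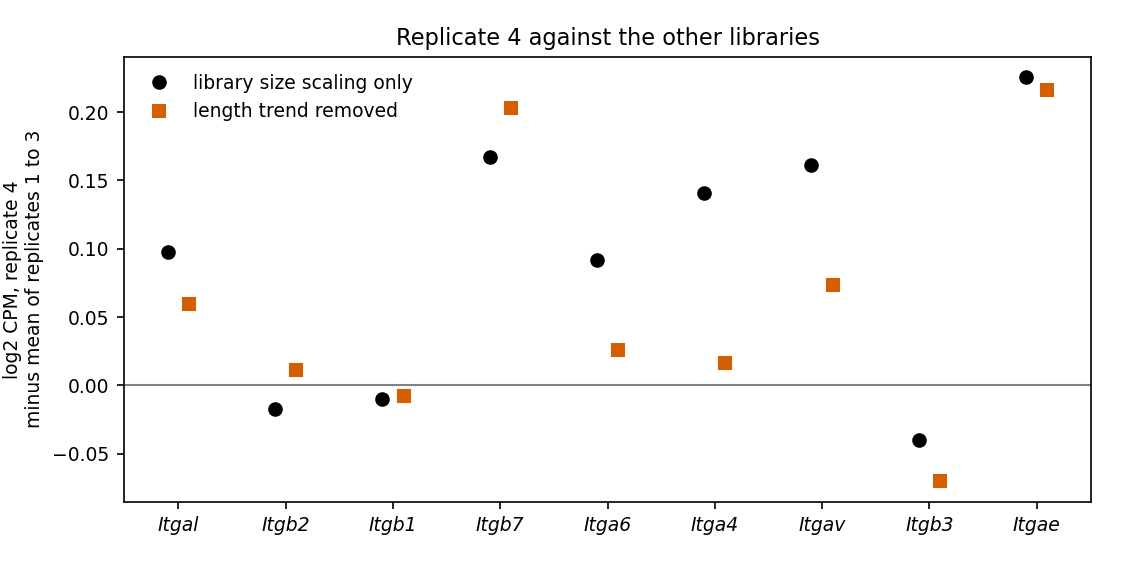
Replicate 4 minus the mean of replicates 1 to 3 in log2 CPM for the 9 integrin chains tested, with library size scaling only (circles) and after removal of a trend on exonic length (squares). After the trend is removed, the values of Itga4, Itgav, Itga6 and Itgal lie closer to 0. That of Itgb7 is 0.17 before and 0.20 after, and that of Itgae 0.23 before and 0.22 after. Itgb3 lies further from 0 (-0.04 before, -0.07 after), and Itgb2 goes from -0.02 to 0.01. Itgb1 is at -0.0101 before and -0.0075 after.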

How the data were processed

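The deposited values are raw gene counts of read pairs. Per the file headers, featureCounts 1.4.6-p4 made them from STAR alignments on GENCODE M13 exons, with reverse strand setting 2. The labels give mm10 as the build, and total RNA-seq as the assay beside a library protocol named polyA+, which was not settled. From these counts TPM was computed with the deposited exonic lengths. Symbols came from GENCODE M21 (50376 of 50600 identifiers matched). The 10 chains, the gene lists and the markers were chosen with earlier results of these data known.

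Differences within libraries used log2(TPM + 1) and an exact two-sided permutation of signs over 16 pairs and 3 sums. Spread was tested with edgeR 4.0.16 (TMM, filterByExpr, intercept only, robust fit), each gene's residual dispersion against the trended prior by an upper-tail F distribution. Log2 CPM used a prior count of 2. DESeq2 1.42.0 was an alternative, as were other scalings, filters, lengths, pseudocounts, floors and each replicate left out. The genes named are the 10 chains, the 4 highest of each list, and the markers; Itga1, Itgb4, Itgb5, Fermt1, Madcam1 and those at 0 were chosen after their values were seen. Poisson intervals (95%) and limits at 3 counts cover counting error only. No protein sequences were used here.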

Additional observations from a re-analysis of the deposited data

Results flagged for a closer look

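Among 29 values examined over the 4 libraries (the levels of the 10 chains and the 19 differences), 3 had a library far from the others by Dixon's test, and all 3 were in replicate 4. Itgal stood at 581 TPM in replicate 4, against 522 to 529 TPM in replicates 1 to 3. Itga4 stood at 18.4 TPM there, against 16 to 16.3 TPM in the others. Itga6 minus Itgb1 was -3.11 on the log2(TPM + 1) scale in replicate 4, the value nearest to 0 of the 4. Chance gives such a gap in about 1 of 20 groups, and the 29 values share chains. Without replicate 4 the mean of Itgal was 527 TPM and that of Itga4 was 16.2 TPM, beside 540.1 and 16.7 TPM over all 4 libraries. The trend on exonic length in that library is given with the levels above.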

How the results depend on the processing

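No paired analysis was possible because a single group leaves no groups to pair; differences between chains were taken within each library. All 19 differences kept their sign with the longest coding transcript, with 200 bases taken off the exonic length, with protein-coding nuclear genes only, with a pseudocount of 0.1 and without each replicate, and 16 of them with no pseudocount (the 3 others involve Itgb8, at 0 in replicate 2). With the median coding transcript 5 changed sign: Itgal minus Itgb2 and the summed partners minus Itgb2 were both -1.16, Itgb1 minus Itgb7 was -0.61, Itga4 minus Itgav -2.98 and Itgav minus Itga6 2.26. That length is 430.5 bases for Itgb7, 630 for Itgb2 and 688 for Itgav. Their longest coding transcripts have 2683, 2970 and 7054 bases. With 3 or 4 libraries no difference can pass 0.05, so keeping a side of that threshold says nothing here. Detection of 8 chains held at floors of 0.5 and 5 TPM. No chain passed the spread test under any of the 11 alternatives, including removal of the length trend, chosen after seeing the data, while the genes called over the whole table numbered 14 without replicate 3, 15 without the robust fit, 28 as reported, and 142 when any gene with a count was kept. Of the 10 levels, 0 moved by over 1 SD under TMM scaling or without any replicate, 6 with 200 bases taken off, 4 with protein-coding genes only, and 8 with the longest or the median transcript. Depth limits Itgae and Itgb8, with at most 15 read pairs in a library.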

Other observations

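Over all 27 integrin chains, chosen as totals after the values were seen, the alpha chains summed to 602, 597, 594 and 658 TPM and the beta chains to 614, 625, 618 and 641 TPM in replicates 1 to 4. The ratio of the 18 alpha to the 9 beta chains was 0.981 ± 0.033 (SD, n = 4), below 1 in replicates 1 to 3 and 1.03 in replicate 4. Without Itgal and Itgb2 the ratio of the other 17 alpha to 8 beta chains was 0.276 ± 0.011. The first ratio depended on the length used: it was 1.22 ± 0.04 with the longest and 0.419 ± 0.017 with the median coding transcript of each gene.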
